A study of Homo sapiens with 6 samples.

Results

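The genes described here build and operate the mitotic spindle. They are 56 genes of the kinetochore, the spindle checkpoint, the mitotic kinases and kinesins, chromosome condensation, mitotic exit and cytokinesis, listed by symbol and role, with earlier results of these data known. All 56 had a row among the 55765 gene symbols of the count tables, and all 56 were among the 16835 genes tested. They were measured by RNA-seq in C4-2 cells, a human castration-resistant prostate cancer (CRPC) cell line derived from LNCaP. For 72 h, 3 cultures received the solvent DMSO and 3 received 1 nM of the synthetic androgen R1881 (methyltrienolone), a dose that the study calls a supraphysiological androgen level (SAL). All cultures were kept in DMEM, with 5% fetal bovine serum in the growth medium, and libraries are numbered 1 to 3 in each group. The comparison asks how the mRNA levels of the mitotic machinery differ between SAL-treated and solvent-treated cells of this one cell line.

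In a dividing cell, the centromere is marked by a special nucleosome on which the kinetochore assembles, and the kinetochore holds the chromosome on spindle microtubules. The spindle checkpoint blocks the anaphase-promoting complex (APC/C), a ubiquitin ligase, until every kinetochore is attached, after which separase is released and the chromatids part. Most mRNAs of this machinery rise in G2 and mitosis and are low in resting cells, partly through the cell cycle genes homology region (CHR), a short promoter element bound by the DREAM and MuvB complexes, and through the transcription factors MYBL2 and FOXM1. In prostate cancer cells, androgen is known to promote growth at low and to inhibit it at high concentration.

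RefSeq promoters (GRCh38.p14, 250 bases before to 50 after the start of the gene) were at hand for 47 of the 56 members, and 5 of them are shown because they span the responses described below. CENPA had the lowest SAL level relative to DMSO of all members, PLK1 is a mitotic kinase and KIF11 a spindle motor that also fell, CENPN was the member that rose, and UBE2S did not pass the test. Each is written 5′ to 3′ on the strand of the gene, with the CHR letters (TTTGAA or TTCGAA, on either strand) and the CCAAT box (CCAAT, on either strand) in capitals. CENPA lies at chr2:26785806-26786105 on the plus strand, PLK1 at chr16:23678639-23678938 on the plus strand, KIF11 at chr10:92592880-92593179 on the plus strand, CENPN at chr16:81006964-81007263 on the plus strand and UBE2S at chr19:55407739-55408038 on the minus strand.
CENPA: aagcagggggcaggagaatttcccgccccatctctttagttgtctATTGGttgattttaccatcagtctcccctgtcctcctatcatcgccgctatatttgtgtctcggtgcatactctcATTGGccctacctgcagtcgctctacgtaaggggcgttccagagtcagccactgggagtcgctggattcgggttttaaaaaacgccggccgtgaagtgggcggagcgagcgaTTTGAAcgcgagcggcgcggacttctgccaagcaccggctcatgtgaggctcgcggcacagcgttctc
PLK1: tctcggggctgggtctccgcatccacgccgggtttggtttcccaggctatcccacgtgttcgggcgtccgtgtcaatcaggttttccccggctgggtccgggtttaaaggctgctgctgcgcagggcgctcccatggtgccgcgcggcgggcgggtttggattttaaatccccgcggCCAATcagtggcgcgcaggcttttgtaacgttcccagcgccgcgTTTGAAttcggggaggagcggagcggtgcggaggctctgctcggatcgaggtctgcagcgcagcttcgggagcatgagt
KIF11: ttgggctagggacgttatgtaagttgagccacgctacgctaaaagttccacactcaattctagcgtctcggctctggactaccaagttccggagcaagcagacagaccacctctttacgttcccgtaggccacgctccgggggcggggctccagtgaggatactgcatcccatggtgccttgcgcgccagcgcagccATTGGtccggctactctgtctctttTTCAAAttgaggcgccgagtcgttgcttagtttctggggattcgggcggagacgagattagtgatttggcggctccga
CENPN: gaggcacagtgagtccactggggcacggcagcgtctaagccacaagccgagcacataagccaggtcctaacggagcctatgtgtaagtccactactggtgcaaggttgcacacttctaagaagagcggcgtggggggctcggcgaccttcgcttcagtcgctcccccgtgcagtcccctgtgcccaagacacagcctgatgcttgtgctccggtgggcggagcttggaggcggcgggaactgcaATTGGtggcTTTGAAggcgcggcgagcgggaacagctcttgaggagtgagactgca
UBE2S: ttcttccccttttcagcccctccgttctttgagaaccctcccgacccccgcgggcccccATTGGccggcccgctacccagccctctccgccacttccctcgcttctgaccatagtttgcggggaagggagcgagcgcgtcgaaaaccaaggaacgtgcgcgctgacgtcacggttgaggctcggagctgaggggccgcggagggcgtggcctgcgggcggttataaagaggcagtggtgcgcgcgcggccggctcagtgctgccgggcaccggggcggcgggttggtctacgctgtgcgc

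Counted from the annotated start, the CHR letters begin at position -18 in CENPA, -29 in PLK1, -28 in KIF11 and 3 in CENPN, and UBE2S has none in this window. Of the 47 member promoters, 33 (70.2%) hold the CHR letters and 33 (70.2%) a CCAAT box, against 16.6% and 35.7% of all 27305 promoters of the table. Both occur together in 25 members (53.2%) and in 6.58% of all promoters. From 100 bases before to 50 after the start, 31 of the 47 members (66%) hold the CHR letters, against 7.43% of all promoters, a window chosen after the positions had been seen. The match positions were concentrated at the start, with 31 of the 43 matches in member promoters beginning within 40 bases of it. The E2F letters (TTTCCCGC, TTTGGCGC, TTTCGCGC or TTTGCCGC, on either strand) were found in 3 of the 47 members (6.38%) and in 3.33% of all promoters. Of the 9690 promoters of genes tested, 5.27% held them. From 100 bases before to 50 after the start, 2.13% of the members and 2.6% of the genes tested did. The median log2 fold change (log2FC, SAL minus DMSO) was -0.79 for the 31 members with the CHR letters near the start and -0.83 for the 16 without, and 29 and 15 of them were down-regulated. With nearly all members down-regulated, these counts leave little room for a difference, and none was tested. These are descriptions of letters and no measurement of binding.

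**Figure D1:**
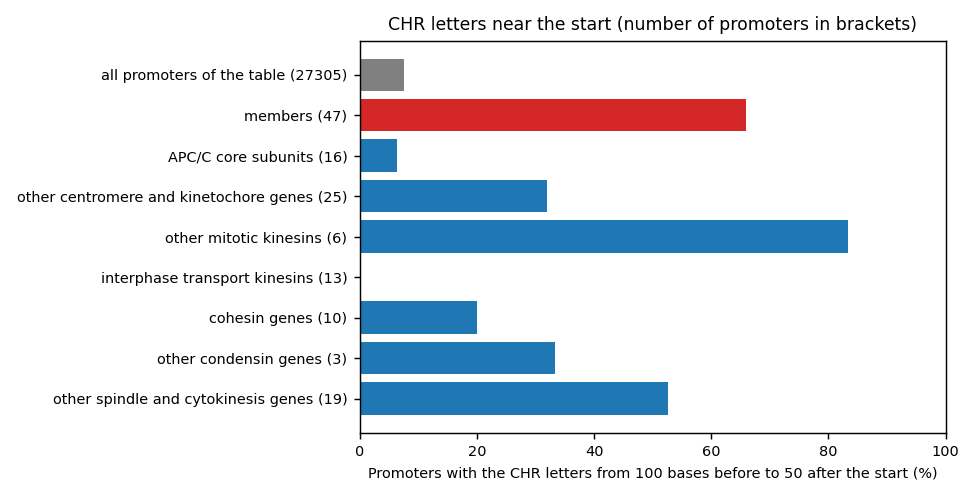
Percentage of promoters that hold the CHR letters from 100 bases before to 50 after the gene start, for the members (red), 7 lists of other genes of mitosis and microtubule transport (blue) and all promoters of the RefSeq table (grey), with the number of promoters in brackets. The members stand at 66% and all promoters at 7.43%, and none of the 13 interphase transport kinesins holds the letters there. The 6 other mitotic kinesins stand at 83.3% and the 19 other spindle and cytokinesis genes at 52.6%.

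The libraries held between 7864471 and 12532355 gene counts, and between 6931042 and 9776990 after the 523 rRNA gene symbols were removed. Levels are given as CPM, counts scaled to 1000000 per TMM-adjusted library, in the order of replicates 1, 2 and 3. The androgen-induced gene KLK3 rose, with a log2FC of 1.21 (adjusted p = 3.33e-07). All 9 prostate luminal markers examined had counts in every library. Of 11 markers of other cell types, PTPRC, COL1A2 and KRT5 had no count in any library and PECAM1 had no row. COL1A1 had 14 to 88 counts per library, VWF 4 to 35, SYP 9 to 24 and CHGA 4 to 17. CD68, KRT14 and TP63 had at most 4. The luminal markers summed to 2546 to 4609 CPM in DMSO and 4829 to 9723 CPM in SAL, and the other markers to 40 to 132 and 42 to 165 counts, and their part in the results below was not tested. Same-numbered libraries deviated together from their group means, over the members with correlations of 0.95, 0.95 and 0.91 for replicates 1, 2 and 3. Of the sum of squares of the members' log2 CPM, 70.0% lay between replicate numbers, 28.7% between treatments and 1.3% in the rest. Over all genes tested these shares were 77.1%, 16.8% and 6.1%. The treatment was tested within the numbered pairs because the study's methods name a paired test. Nothing in the labels says what a replicate number shares, and the paper describes the experiments as independent.

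The mRNAs of the mitotic machinery were lower in SAL-treated cells almost throughout. Of the 56 members, 53 were down-regulated (adjusted p under 0.05, edgeR's quasi-likelihood test with the replicate block and Benjamini-Hochberg adjustment over all genes tested), where 9.37% of all genes tested were. Only CENPN was up-regulated, where 11.5% of all genes tested were, and SPC25 and UBE2S did not pass. The median log2FC of the members was -0.81, or 57.1% of the DMSO level, and that of all genes tested was -0.0011. The 53 down-regulated members were close to one another in size, with SAL levels between 47.2% and 79.3% of DMSO and 45 of them with a log2FC between -1.1 and -0.6. The direction repeated in every pair, with medians of -0.80, -0.81 and -0.82 in replicates 1, 2 and 3. In all 3 pairs, 54 of the 56 members were lower in SAL, against 4260 of the 16835 genes tested. In bulk RNA, fewer cells in mitosis and less of each mRNA per cell cannot be told apart.

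Added over the 56 members, the level was 7976, 3526 and 6350 CPM in the DMSO libraries and 4820, 2223 and 3937 CPM in the SAL libraries. The SAL sum was 60.4%, 63.0% and 62.0% of the DMSO sum in replicates 1, 2 and 3. The 2 groups overlapped, since SAL replicates 1 and 3 were above DMSO replicate 2. For single members the same held, and in 5 of the 56 (KIF2C, KIF20A, TPX2, CDCA8 and NCAPH) all 3 SAL libraries were below all 3 DMSO libraries, against 3.73% of all genes tested. Without the replicate block, none of the 56 members passed in edgeR (3 had an unadjusted p under 0.05) at a median log2FC of -0.78, and with DESeq2 and the block 50 were down-regulated. In replicate 3 the share of reads outside genes was the highest of both groups (48.3% in DMSO and 43.3% in SAL), and without that pair 44 members were down-regulated. The part of this share in the result was not tested.

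**Figure D2:**
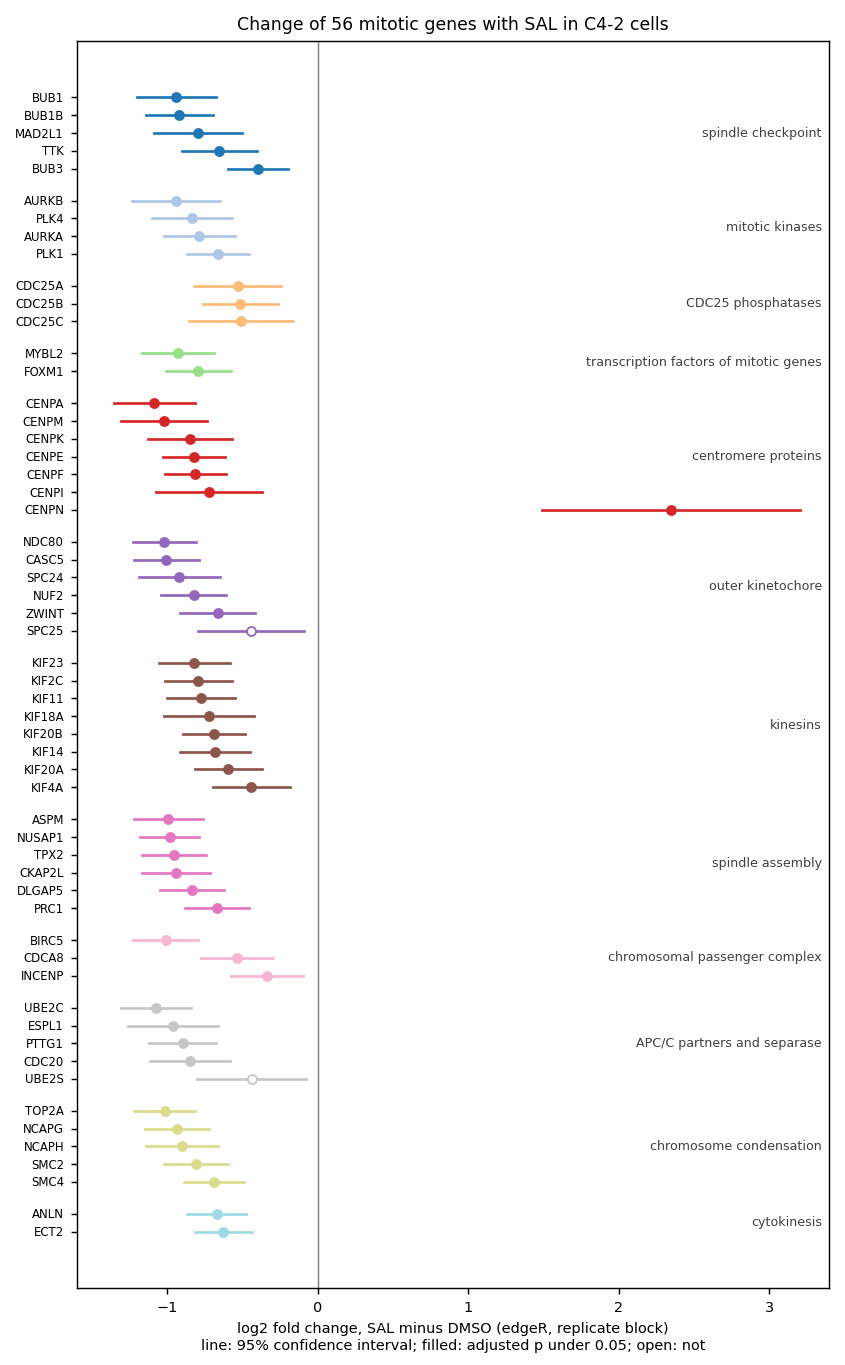
Log2FC of each of the 56 members, SAL minus DMSO, with its 95% confidence interval (edgeR with the replicate block), ordered within 12 groups by role. Filled points passed an adjusted p of 0.05. Every point but CENPN lies left of 0, and SPC25 and UBE2S are the open points.

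The spindle checkpoint kinases and their partners were lower in SAL, with all 5 members down-regulated and a median log2FC of -0.79. Without replicate 3, BUB3 and TTK were not called. BUB1, a kinase that recruits checkpoint proteins to the kinetochore, had 103, 44 and 97.4 CPM in DMSO and 68.4, 18.2 and 48.1 CPM in SAL. SAL was lower in each pair, and DMSO replicate 2 lay below SAL replicates 1 and 3. Its log2FC was -0.94 (standard error, SE, 0.12, adjusted p = 6.81e-05). BUB1B, the BUBR1 subunit of the mitotic checkpoint complex, had a log2FC of -0.92 (adjusted p = 1.33e-05), and MAD2L1, the MAD2 protein of that complex, one of -0.79 (adjusted p = 0.000985). The fall of MAD2L1 was uneven over the pairs, at -0.36, -1.11 and -0.97. TTK, the MPS1 kinase that starts checkpoint signalling, had a log2FC of -0.65 (adjusted p = 0.000914). BUB3, which carries BUB1 and BUB1B to the kinetochore, changed least in this group. It had 128, 72.1 and 101 CPM in DMSO and 103, 53.1 and 74.8 CPM in SAL, a log2FC of -0.40 (SE 0.09, adjusted p = 0.00691) with pairs of -0.32, -0.44 and -0.43.

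All 4 mitotic kinases were down-regulated, with a median log2FC of -0.81. AURKB, the kinase of the chromosomal passenger complex that corrects wrong attachments, had 49.8, 25.2 and 21.6 CPM in DMSO and 22.4, 14.8 and 11.8 CPM in SAL. Its log2FC was -0.94 (SE 0.14, adjusted p = 0.000139), and SAL was lower in each pair. PLK1, which acts from mitotic entry to cytokinesis, had 45.6, 128 and 101 CPM in DMSO and 30.0, 80.7 and 62.1 CPM in SAL. Its replicate 1 was the lowest of each group, whereas in AURKB it was the highest, yet the pairs of PLK1 changed by -0.60, -0.66 and -0.70 (log2FC -0.66, SE 0.10, adjusted p = 0.000140). AURKA, the spindle pole kinase, and PLK4, the kinase of centriole duplication, had log2FC values of -0.78 (adjusted p = 0.000116) and -0.83 (adjusted p = 0.000172).

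The 3 CDC25 phosphatases, which activate cyclin-dependent kinases at cell cycle transitions, were all down-regulated by similar amounts. CDC25A had 18.7, 30.5 and 36.9 CPM in DMSO and 10.6, 22.3 and 28.1 CPM in SAL (log2FC -0.53, SE 0.14, adjusted p = 0.0111). CDC25B had a log2FC of -0.51 (adjusted p = 0.00500). CDC25C had 23.5, 18.7 and 15.4 CPM in DMSO and 16.6, 10.6 and 13.3 CPM in SAL (log2FC -0.51, SE 0.16, adjusted p = 0.0351). Without replicate 3 none of the 3 was called in edgeR, and CDC25C was not called with DESeq2 or without replicate 2 either. Their median was -0.51, against -0.81 for all members, and the difference was not tested.

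Both transcription factors of the mitotic programme were down-regulated. MYBL2 (B-MYB), which binds the MuvB core at CHR promoters, had 44.5, 99.4 and 79.9 CPM in DMSO and 20.9, 62.2 and 38.4 CPM in SAL. Its log2FC was -0.93 (SE 0.11, adjusted p = 2.37e-05). FOXM1, which follows MYBL2 at many of these promoters, had 52.0, 125 and 111 CPM in DMSO and 26.3, 78.9 and 65.7 CPM in SAL, with a log2FC of -0.79 (SE 0.10, adjusted p = 4.27e-05). In both genes each SAL library was below its DMSO partner, and SAL replicate 2 lay above DMSO replicate 1.

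**Figure D3:**
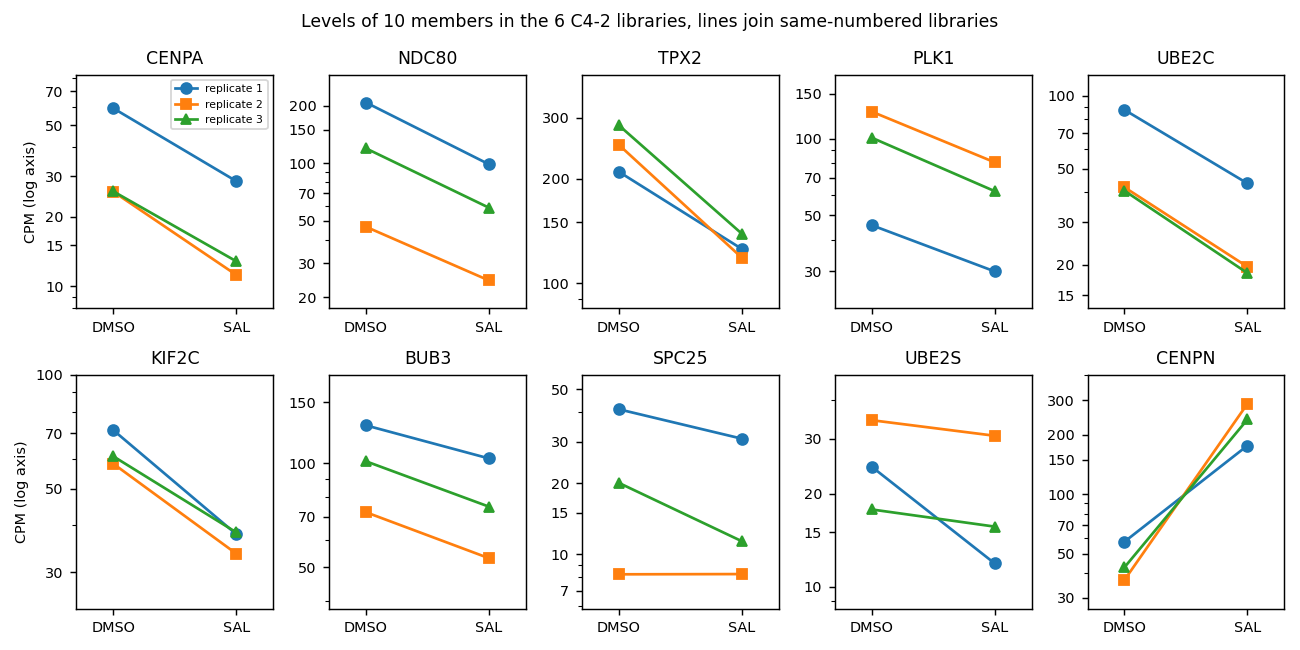
CPM (log axis) of 10 members in the 6 libraries, with lines joining the DMSO and SAL library of the same replicate number. The lines of CENPA, NDC80, TPX2, PLK1, UBE2C, KIF2C and BUB3 all fall, those of CENPN all rise from 36.9 to 57.6 CPM in DMSO to 177 to 288 CPM in SAL, replicate 2 of SPC25 is level, and UBE2S falls mainly in replicate 1.

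Among the 7 centromere proteins, 6 were down-regulated and 1 was up-regulated. CENPA, the histone H3 variant that marks the centromere, had 59.2, 25.7 and 25.8 CPM in DMSO and 28.6, 11.2 and 12.8 CPM in SAL. Its log2FC was -1.08 (SE 0.13, adjusted p = 1.81e-05), the lowest of the 56, with pairs of -1.05, -1.18 and -0.995. CENPM, a subunit of the constitutive centromere network, had a log2FC of -1.02 (adjusted p = 5.64e-05). CENPK and CENPI of the same network had log2FC values of -0.85 (adjusted p = 0.000240) and -0.72 (adjusted p = 0.00512). CENPE, a kinesin that moves chromosomes to the spindle equator, and CENPF, a large protein of the outer corona, had log2FC values of -0.82 (adjusted p = 1.93e-05) and -0.81 (adjusted p = 1.66e-05).

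CENPN, whose protein binds the CENPA nucleosome and joins it to the centromere network, went the other way. It had 57.6, 36.9 and 42.8 CPM in DMSO and 177, 288 and 240 CPM in SAL, and the lowest SAL library was above the highest DMSO library. The mean rose from 45.8 ± 10.7 to 235 ± 55.7 CPM (SD, n = 3). The log2FC was 2.35 (SE 0.30, 95% interval 1.49 to 3.20, adjusted p = 0.0132), which is 5.08-fold. The pairs rose by 1.61, 2.95 and 2.48. With one replicate number left out, the log2FC was between 2.03 and 2.72 and CENPN was called each time, and without the block its adjusted p was 0.0948. Scaled to exon length, CENPN rose from 8.06 to 41.4 CPM per kb, so that it passed from below CENPM (20.4 CPM per kb in DMSO) to above it (9.79 CPM per kb in SAL). CENPN lies on chromosome 16 from 81040157 to 81066719 (GRCh37, plus strand), and 4.23% of its exon bases lie under exons of CMC2, or 23.1% under those of any annotated gene of either strand, genes without a row in the count tables included. The counting did not use strand, and CMC2 itself had a log2FC of 0.48 (adjusted p = 0.00492).

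In the outer kinetochore, which grips the microtubule, 5 of 6 members were down-regulated, with a median log2FC of -0.87. NDC80, the microtubule-binding subunit of the complex of that name, had 208, 46.6 and 120 CPM in DMSO and 98.9, 24.4 and 58.6 CPM in SAL. The DMSO libraries differed widely, but the pairs changed by -1.07, -0.92 and -1.03, a log2FC of -1.02 (SE 0.10, adjusted p = 1.99e-06). CASC5, now named KNL1, is the scaffold on which BUB1 and BUB3 dock, and its log2FC was -1.004 (adjusted p = 3.54e-06). NUF2 and SPC24, partners of NDC80 in the complex, had log2FC values of -0.82 (adjusted p = 2.94e-05) and -0.92 (adjusted p = 8.52e-05). ZWINT, which binds KNL1, had one of -0.66 (adjusted p = 0.000794). SPC25, the remaining subunit of the NDC80 complex, was the lowest of its 4 genes in CPM. It had 41.1, 8.20 and 20.04 CPM in DMSO and 30.9, 8.22 and 11.3 CPM in SAL. Replicate 2 was level and the others were lower, and the log2FC of -0.44 (SE 0.16, 95% interval -0.79 to -0.09, adjusted p = 0.0706) did not pass. Scaled to exon length in DMSO, the 4 subunits stood at 35.1 (NDC80), 22.0 (NUF2), 16.6 (SPC24) and 12.6 CPM per kb (SPC25), and in SAL at 17.1, 12.3, 8.64 and 9.19 CPM per kb.

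All 8 kinesins were down-regulated, with a median log2FC of -0.70 and a narrow range from -0.82 to -0.44. KIF23, the motor of the central spindle that works with PRC1 in cytokinesis, had 104, 28.4 and 68.9 CPM in DMSO and 52.6, 19 and 38.7 CPM in SAL. Its log2FC was -0.82 (SE 0.11, adjusted p = 7.30e-05). KIF2C, which removes tubulin from wrongly attached microtubule ends, had 71.5, 58.3 and 60.9 CPM in DMSO and 37.9, 33.7 and 38.3 CPM in SAL. Here the groups did not overlap (log2FC -0.79, SE 0.11, adjusted p = 5.92e-05). KIF20A, needed in cytokinesis, had 87.3, 64.0 and 68.4 CPM in DMSO and 59.6, 36.6 and 50.9 CPM in SAL, again without overlap (log2FC -0.59, adjusted p = 0.000836). KIF11, the motor that pushes the spindle poles apart, KIF18A, which dampens chromosome movements, KIF14 and KIF20B had log2FC values of -0.77, -0.72, -0.68 and -0.69 (adjusted p = 8.47e-05, adjusted p = 0.00171, adjusted p = 0.000349 and adjusted p = 0.000102). KIF4A, a motor on chromosome arms, changed least, from 44.7, 29.0 and 46.6 CPM in DMSO to 33.6, 18.1 and 38.8 CPM in SAL (log2FC -0.44, SE 0.12, adjusted p = 0.0162), and was not called with DESeq2, without replicate 2 or without replicate 3. KIF18A was not called without replicate 3 either.

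The 6 spindle assembly genes had the lowest median of the groups, at -0.95, and all were down-regulated. TPX2, which activates AURKA on the spindle, and NUSAP1 had the highest mean levels for exon length in DMSO, at 68.9 and 68.6 CPM per kb. Their order differed between libraries, since NUSAP1 had 400 and TPX2 210 CPM in DMSO replicate 1 on joined exons of nearly equal length. The ranking depends on the length used. The canonical transcripts of TPX2 and NUSAP1 have 3473 and 2263 bases, and that of PTTG1 has 715 against 1975 exon bases. TPX2 had 210, 251 and 285 CPM in DMSO and 126, 119 and 139 CPM in SAL, without overlap, a log2FC of -0.95 (SE 0.10, adjusted p = 5.00e-06). ASPM, a spindle pole protein, had 289, 98.3 and 267 CPM in DMSO and 162, 39.7 and 146 CPM in SAL (log2FC -0.99, SE 0.11, adjusted p = 7.82e-06). NUSAP1, which bundles microtubules, had a log2FC of -0.98 (adjusted p = 1.88e-06), and CKAP2L and DLGAP5 (HURP) had -0.94 (adjusted p = 1.39e-05) and -0.84 (adjusted p = 2.02e-05). PRC1, the bundler of the central spindle, changed least, from 169, 75.1 and 127 CPM in DMSO to 94.3, 53.3 and 81.1 CPM in SAL (log2FC -0.67, SE 0.10, adjusted p = 0.000186). Counting without strand cannot assign reads within both PRC1 and PRC1-AS1 to 1 gene. Of the exon bases of PRC1, 34.3% lie under exons of PRC1-AS1 on the other strand, and 61.9% under any annotated gene. For NUSAP1 these shares are 15.2% under genes of the count tables and 86.8% under any annotated gene.

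The chromosomal passenger complex joins AURKB to INCENP, BIRC5 (survivin) and CDCA8 (borealin), and the log2FC values of these 4 genes ranged from -1.01 to -0.33. BIRC5 had 173, 58.3 and 52.0 CPM in DMSO and 80.3, 31.2 and 26.0 CPM in SAL, a log2FC of -1.01 (SE 0.10, adjusted p = 3.32e-06) with pairs of -1.11, -0.89 and -0.99. CDCA8 had 37.2, 51.8 and 53.4 CPM in DMSO and 28.6, 36.1 and 33.0 CPM in SAL, with every SAL library below every DMSO library (log2FC -0.54, SE 0.11, adjusted p = 0.00293), and was not called without replicate 3. INCENP, the scaffold, had 19.6, 66.2 and 61.3 CPM in DMSO and 18.1, 51.6 and 44.2 CPM in SAL. It changed least of all 53 down-regulated members (log2FC -0.33, SE 0.11, 95% interval -0.58 to -0.09, adjusted p = 0.0473), and DESeq2, the fit without a filter on low counts and those without replicate 2 or 3 did not call it. The 95% intervals of BIRC5, from -1.22 to -0.79, and of INCENP did not overlap, and the difference between them was not tested.

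Of the 5 genes that act with the APC/C or are released by it, 4 were down-regulated, with a median log2FC of -0.90. UBE2C, the ubiquitin-conjugating enzyme that starts chains for the APC/C, had 87.5, 41.8 and 40.5 CPM in DMSO and 43.4, 19.6 and 18.5 CPM in SAL. Its pairs were close, at -1.01, -1.08 and -1.12 (log2FC -1.07, SE 0.11, adjusted p = 4.30e-06). UBE2S, which lengthens those chains, had 24.4, 34.5 and 17.8 CPM in DMSO and 11.9, 30.7 and 15.6 CPM in SAL. Only its replicate 1 changed by a large amount, with pairs of -1.02, -0.17 and -0.18, and the log2FC of -0.44 (SE 0.17, 95% interval -0.80 to -0.07, adjusted p = 0.0862) did not pass. Of its exon bases, 24.1% lie under another gene. CDC20, the APC/C activator of early anaphase, had 30.4, 47.3 and 42.2 CPM in DMSO and 16.1, 30.5 and 20.7 CPM in SAL (log2FC -0.85, SE 0.13, adjusted p = 0.000157). PTTG1 (securin), the inhibitor of separase, and ESPL1, separase itself, fell by nearly the same amount, with log2FC values of -0.90 (adjusted p = 1.59e-05) and -0.96 (adjusted p = 0.000152). Their levels for length differed, at 38.7 CPM per kb for PTTG1 and 3.38 CPM per kb for ESPL1 in DMSO.

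All 5 genes of chromosome condensation were down-regulated, with a median log2FC of -0.90. TOP2A, the topoisomerase that untangles sister chromatids, had 433, 123 and 353 CPM in DMSO and 225, 54.6 and 183 CPM in SAL. It had the smallest adjusted p of the members (1.57e-06), with a log2FC of -1.02 (SE 0.09). NCAPH, the kleisin of condensin I, was the steadiest, with 59.8, 58.0 and 59.3 CPM in DMSO and 35.5, 26.9 and 33.0 CPM in SAL. Its groups did not overlap, and its log2FC was -0.90 (SE 0.11, adjusted p = 3.09e-05). NCAPG and the core subunits SMC2 and SMC4, shared by condensins I and II, had log2FC values of -0.93 (adjusted p = 6.98e-06), -0.81 (adjusted p = 3.21e-05) and -0.69 (adjusted p = 7.40e-05). SMC4, the member that changed least here, had 403, 205 and 453 CPM in DMSO and 270, 114 and 287 CPM in SAL. In NCAPG 33.7% of the exon bases lie under LCORL, and in SMC4 22.0% under other genes, chiefly TRIM59. The cytokinesis genes ANLN (anillin) and ECT2, the activator of RhoA at the cleavage furrow, were both down-regulated. ANLN had 321, 74.2 and 224 CPM in DMSO and 204, 47.9 and 136 CPM in SAL (log2FC -0.67, SE 0.09, adjusted p = 8.27e-05). ECT2 had 407, 111 and 304 CPM in DMSO and 268, 71.3 and 196 CPM in SAL (log2FC -0.63, SE 0.09, adjusted p = 0.000126), and its pairs were nearly equal at -0.61, -0.64 and -0.63.

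Set side by side, kinetochore genes (centromere and outer kinetochore together, 11 of 13 down-regulated) had a median of -0.82, checkpoint genes -0.79 and kinesins -0.70. The 5 APC/C partners with separase, none of them an APC/C core subunit, had a median of -0.90. The APC/C list with the core subunits, given below, had a median of 0.04. In replicates 1, 2 and 3, the kinesin medians were -0.62, -0.79 and -0.65 and those of the APC/C partners with separase -0.90, -0.98 and -1.02. The checkpoint medians were less even, at -0.60, -1.11 and -0.88. The ranges of the groups overlapped, and no difference between groups was tested.

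**Figure D4:**
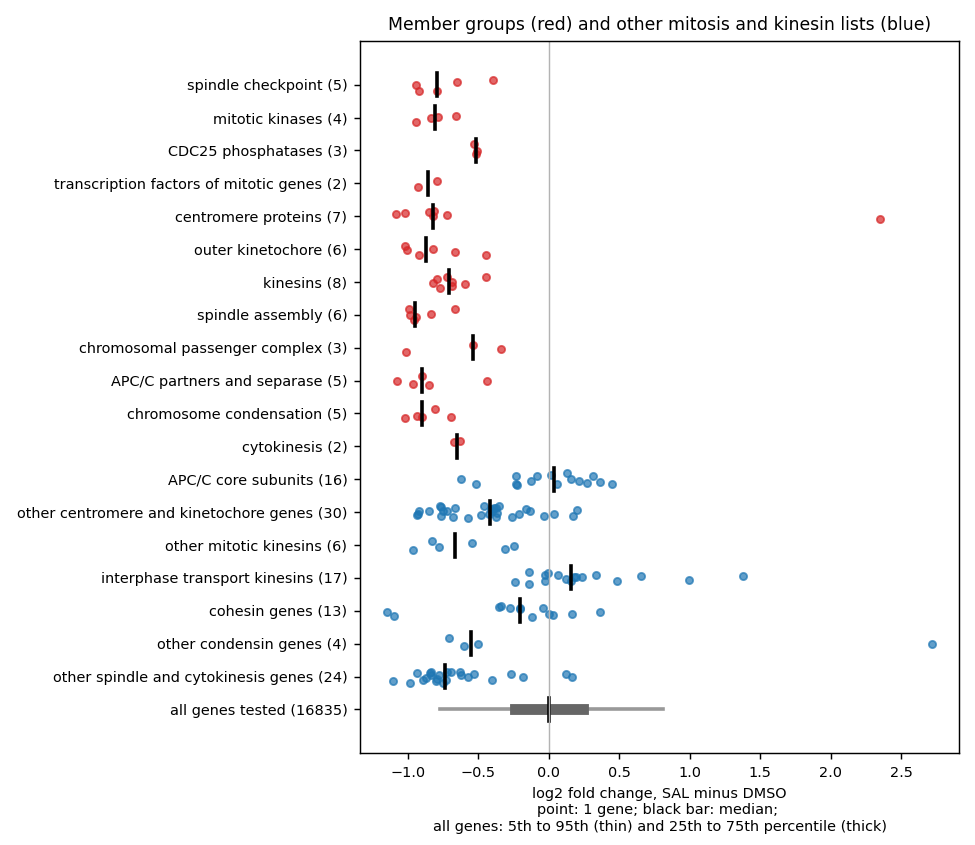
Log2FC (SAL minus DMSO) of every tested gene in the 12 member groups (red) and in 7 lists of other genes (blue), 1 point per gene with the median as a black bar, above the percentiles of all 16835 genes tested. The red points lie between -1.08 and -0.33 apart from CENPN at 2.35, whereas APC/C core subunits and interphase transport kinesins straddle 0.

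Other genes of mitosis were read from the same fit, in which 9.37% of all genes tested were down-regulated and 11.5% up-regulated. The APC/C list (core subunits with the activator FZR1 and the inhibitor FBXO5) had 2 of 16 down-regulated, 2 up-regulated and a median log2FC of 0.04. Both counts were near the share over all genes tested. FBXO5 (EMI1), itself a cell cycle gene, had a log2FC of -0.62 (adjusted p = 0.000354) and ANAPC1 one of -0.51 (adjusted p = 0.00450). The up-regulated subunits, named here after their values were seen, were ANAPC13 at 0.36 (adjusted p = 0.0214) and ANAPC16 at 0.32 (adjusted p = 0.0343). The difference between this list and the partners CDC20 and UBE2C was not tested. Among the kinesins outside the members, 5 of the 6 listed here as mitotic were down-regulated. KIF15 (log2FC -0.96, adjusted p = 2.82e-05) and KIF24 (-0.82, adjusted p = 0.000485) had the smallest adjusted p of that list. Of the 17 interphase transport kinesins and light chains tested, none was down-regulated in edgeR (0 also at an unadjusted p under 0.05, and 0 with DESeq2) and 3 were up-regulated. With 17 genes, these counts were not tested against the shares over all genes. KIF5C had 15.9, 25.4 and 32.6 CPM in DMSO and 39.1, 71.0 and 82.8 CPM in SAL (log2FC 1.38, adjusted p = 3.12e-07), KIF13B had a log2FC of 0.99 (adjusted p = 2.07e-05) and KLC2, named after its value was seen, one of 0.65 (adjusted p = 0.00258).

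Of 30 further centromere and kinetochore genes, 16 were down-regulated and none was up-regulated in edgeR (0 also at an unadjusted p under 0.05), with a median log2FC of -0.42. SKA3, which couples kinetochores to depolymerizing microtubules, had -0.85 (adjusted p = 2.12e-05) and CENPH of the centromere network -0.75 (adjusted p = 3.67e-05). Of 24 further spindle and cytokinesis genes, 20 were down-regulated, with a median of -0.74. RACGAP1, the partner of KIF23, had a log2FC of -0.93 (adjusted p = 4.97e-06) and the kinase NEK2 one of -1.105 (adjusted p = 9.51e-06). Of 13 genes of cohesin, which holds sister chromatids together, 4 were down-regulated, 1 was up-regulated and 8 were not called, with ESCO2 (-1.14, adjusted p = 2.84e-06) and CDCA5, sororin (-1.098, adjusted p = 1.27e-05), both needed to establish cohesion, below the ring subunits in log2FC, and PDS5B at 0.36 (adjusted p = 0.00911).

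Of the 4 other condensin subunits, NCAPG2, NCAPD2 and NCAPH2 were down-regulated, NCAPG2 with a log2FC of -0.70 (adjusted p = 9.47e-05). NCAPD3 of condensin II had 93.9, 114 and 158 CPM in DMSO and 568, 771 and 1098 CPM in SAL. The groups did not overlap, and the log2FC was 2.72 (SE 0.10, adjusted p = 5.69e-11) or 6.58-fold, with pairs of 2.59, 2.76 and 2.80. Scaled to exon length, NCAPD3 stood at 6.52 CPM per kb in DMSO, below NCAPH at 9.02, and at 43.4 CPM per kb in SAL, where NCAPH was at 4.86. This length joins all annotated exons, 18698 bases for NCAPD3 and 6545 for NCAPH. Their canonical transcripts have 7369 and 6030 bases, and the order of the 2 genes in DMSO depends on which length is used. Of the exon bases of NCAPD3, 11.4% lie under JAM3 or VPS26B. Without replicate 3, the down-regulated counts of these lists were 1 of the APC/C genes, 2 of the mitotic kinesins, 10 of the centromere and kinetochore genes, 11 of the spindle and cytokinesis genes, 2 of the cohesin genes and 1 of the condensin subunits. Without replicate 1, 1 of the interphase kinesins was down-regulated. Over all genes tested, 2.84% were down-regulated without replicate 3 and 11.7% without replicate 1.

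The level of many members in one group depended on the replicate number. In DMSO, 39 members were lowest in replicate 2, 10 in replicate 1 and 7 in replicate 3. The 10 lowest in replicate 1 were PLK1, CDC25A, CDC25B, FOXM1, MYBL2, TPX2, INCENP, CDCA8, CDC20 and ESPL1. The difference between replicates 1 and 2 moved with the GC content of the transcript, here of the Ensembl canonical transcript. Across the 56 members, GC content correlated with the log2 difference between DMSO replicates 2 and 1 (Pearson's r = 0.80, Spearman's rho = 0.77) and, in the SAL libraries, between the same replicates (r = 0.85, rho = 0.84). Between DMSO replicates 3 and 1 the relation was weaker (r = 0.33, rho = 0.22). With the log2FC between SAL and DMSO the correlation was r = 0.01 and rho = 0.02. All points of one correlation share the same libraries, and genes are not independent replicates.

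**Figure D5:**
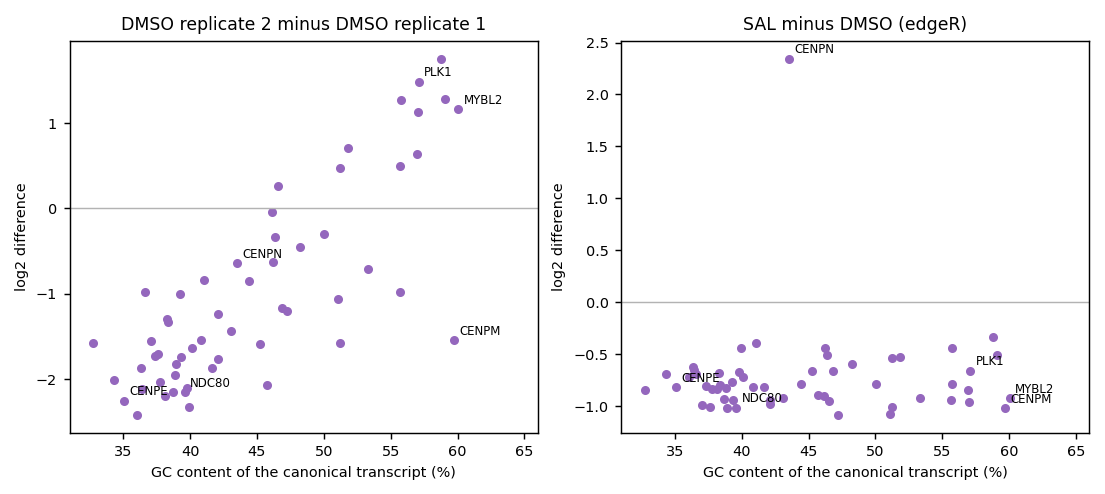
GC content of the canonical transcript against the log2 difference between 2 DMSO libraries (left) and against the log2FC of SAL minus DMSO (right), 1 point for each of the 56 members. On the left the points climb with GC content (r = 0.80), and on the right they form a level band below 0 (r = 0.01) with CENPN above it.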

How the data were processed

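Total RNA of 6 C4-2 cultures was sequenced in pairs of reads. After trimming, the authors aligned only read R1 with tophat 2.1.0 (genome build hg19) and assigned it to gencode v19 genes with HTSeq 0.11.2, ignoring strand. The deposited values are raw counts per gene symbol. The 5 tally lines at the end of each table were left out of library sizes, and reads outside genes made up 24.0% to 48.3% of all tallied reads.

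From these counts 523 rRNA symbols were removed and low genes were dropped with filterByExpr, leaving 16835 genes. They were scaled by TMM and tested with edgeR 4.0.16 (quasi-likelihood, robust) in R 4.3.3, with replicate number and treatment as terms, since the study's methods name a paired test. Same-numbered libraries correlated in their deviations at 0.89, 0.86 and 0.74 over all genes tested. A standard error (SE) is the size of the log2FC divided by the square root of F, and pair changes use a prior count of 2. The use of 6 libraries limits precision.

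Values in every library are given for the members with the largest and the smallest change of each group, for those not called lower and for others a sentence turns on. Of each other list, the 2 genes with the smallest adjusted p are named, and calls opposite to the rest. The members and lists were chosen with earlier results of these data known. Gene positions and exon lengths come from GRCh37 with GENCODE v44, newer than the annotation counted on, and the promoters from RefSeq. An exon length is that of all annotated exons of a gene joined, which can be far longer than its canonical transcript. The scripts were tested on simulated data. A marker of the fixed list is not reported here. Alternatives were DESeq2 1.42.0, other scalings, filters and thresholds, no block, and each replicate number left out.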

Additional observations from a re-analysis of the deposited data

How the results depend on the processing

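The replicate block decided the calls. Without the replicate block, edgeR called 0 members lower and 0 higher (3 had an unadjusted p under 0.05), against 53 and 1 with it and 50 and 1 with DESeq2 and the block, while 55 of 56 kept a negative log2 fold change. Over all genes, 1577 were lower and 1931 higher, against 3 and 18 without the block, 950 and 1290 with DESeq2, 483 and 750 without replicate 3, 876 and 1234 at the adjusted p of 0.01 and 345 and 541 with the threshold on log2FC described next. At an adjusted p under 0.01, 49 members were lower and 0 higher, since CENPN had an adjusted p of 0.0132. At an adjusted p under 0.05 with a log2FC of 1 or more in size, 7 were lower (CENPA, CENPM, NDC80, CASC5, BIRC5, UBE2C and TOP2A) and 1, CENPN, was higher. Leaving out one replicate number gave 44 to 53 members lower, and CENPN higher each time. The other 7 settings gave 50 to 54 lower. The median log2 fold change was -0.78 without the block, -0.82 with DESeq2 and with its size factors in edgeR, -0.85 with upper-quartile scaling, -0.80 without a filter, and -0.82 to -0.78 with one replicate number left out. The medians of the 3 pairs lay between -0.815 and -0.802. The values of -0.78 without the block and -0.85 with upper-quartile scaling were outside that range. None of the 72 genes recomputed, the 56 members and 16 others, changed sign in any of these settings. ANAPC13, ANAPC16, KLC2, NCAPD2, NCAPH2 and CMC2 were not among them. With 49 to 5277 counts per member and library, depth bears most on the members with few counts, such as SPC25 and CENPI.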

Other observations

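The CHR letters were also read over the other genes tested that had a promoter in the RefSeq table. Of the 389 other genes with the letters from 100 bases before to 50 after the start, 107 (27.5%) were down-regulated and 38 (9.77%) up-regulated, with a median log2 fold change of -0.13. Of the 9254 other genes without them, 915 (9.89%) were down-regulated and 1292 (14.0%) up-regulated, with a median of 0.02. The window was chosen after the positions in the members had been seen, the genes share libraries, and no test was made.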
